A study of Homo sapiens with 20 samples.

Results

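Heat shock factor 1 (HSF1) and the cytosolic and mitochondrial chaperone genes most often taken as its targets were followed in MM1.S multiple myeloma cells after degradation of CBP and p300. The set held 10 of the 19593 genes in the libraries: HSF1 itself, HSPA1A, HSPA1B, HSPA8, HSP90AA1, HSP90AB1, HSPH1, DNAJB1, HSPD1 and HSPE1. They were chosen by name and role, with earlier results of these data known. Each gene was read from the transcript with the most reads over all 20 libraries. MM1.S, a wild-type myeloma cell line as labelled, was treated with 10 nM dCBP-30, a bifunctional degrader that brings CBP and p300 to the ubiquitin ligase receptor cereblon, or with DMSO, for 2, 6 or 24 h. Each of the 6 groups had 3 libraries. All 18 received 4-thiouridine (4sU), a uridine analog taken up into new transcripts, for the last 1 h, and another 2 libraries came from cells without 4sU. The samples are those of 1 cell line, and the labels do not say whether replicates were separate cultures, so the p-values measure the spread between these libraries.

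Cells keep proteins folded with ATP-driven chaperone machines. HSP70 proteins bind short unfolded stretches of a client, J-domain partners such as DNAJB1 deliver clients and trigger ATP hydrolysis, and HSPH1, the large HSP110 relative, exchanges the nucleotide. HSP90 proteins take over partly folded clients such as kinases and steroid receptors, and the HSPD1 and HSPE1 proteins form the barrel and the lid of the chaperonin in the mitochondrial matrix. Under protein stress HSF1 is released from chaperones, forms trimers and binds heat shock elements, which are repeats of the unit GAA in alternating orientation. Plasma cells and their tumors secrete large amounts of immunoglobulin and are known for a heavy load on protein folding, while CBP and p300 are acetyltransferases that serve as coactivators of many transcription factors.

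The heat shock element was searched in the RefSeq promoter windows of the members, taken from 250 bases before to 50 bases after each annotated start (GRCh38.p14), because it is the feature by which HSF1 targets are recognised. RefSeq windows were matched for 9 of the 10 members and the entry of HSF1 was missing. The 2-unit form was spelled GAANNTTC or TTCNNGAA, each of which reads the same on both strands. The 3-unit form adds a further GAA or TTC after 2 free bases, and every 3-unit match therefore contains overlapping 2-unit matches. The windows below are the members' 3-unit matches with their flanks, and the capitals mark the units.
HSPA8, chr11:123062345-123062374, minus strand: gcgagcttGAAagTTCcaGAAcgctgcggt
HSPA8, chr11:123062170-123062199, minus strand: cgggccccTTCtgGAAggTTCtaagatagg
HSP90AA1, chr14:102087111-102087140, minus strand: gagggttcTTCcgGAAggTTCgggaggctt
HSP90AB1, chr6:44247770-44247799, plus strand: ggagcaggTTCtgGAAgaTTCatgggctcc
HSP90AB1, chr6:44247823-44247852, plus strand: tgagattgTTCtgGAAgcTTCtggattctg
HSPD1, chr2:197500061-197500090, minus strand: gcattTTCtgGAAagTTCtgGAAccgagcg

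The 3-unit form stood in 4 of the 15 promoter windows of the members, those of HSPA8, HSP90AA1, HSP90AB1 and HSPD1. Of all 35116 RefSeq promoter windows 172 held it (0.490%). The 2-unit form stood in windows of 7 members, adding HSPA1A, HSPA1B and DNAJB1, and in 13.5% of all windows. The 7 counts genes, some with several windows, and the 13.5% counts single windows. Neither form was found in the windows of HSPH1 and HSPE1. HSPD1 and HSPE1 lie head to head on chromosome 2. The run of 4 units near HSPD1 lies 228 to 245 bases before one of its starts and 294 to 311 bases before the start of HSPE1, just beyond the 250 bases searched there. These matches describe the sequence and say nothing of whether HSF1 was bound.

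Depth was even, with 12439665 to 18727385 reads on genes per library. Reads with T>C conversions, the mark left by 4sU after alkylation, made up 4.71% to 8.62% of reads in labelled libraries and 0.794% and 0.809% without 4sU. Of 10 plasma cell markers, 9 exceeded 10 RPM (reads per 1000000 reads of the library, after scaling) in the median DMSO library and CD27 was below 1, while 11 of 12 markers of other cell types were below 1 and CD3E was at 4.56. Conversions counted on the transcripts were divided by their T>C reads. At 24 h this ratio was 1.43 to 1.51 in the dCBP-30 libraries, against 2.46 to 2.51 under DMSO. At 2 h these ranges were 2.13 to 2.23 and 2.17 to 2.22. Without 4sU the ratio was 0.918 and 0.928, below 1, so it is not the number of conversions that a T>C read carries. Less incorporated 4sU, less labelled RNA and less transcription per cell cannot be told apart from these reads, and neither can fewer cells and less RNA per cell. The lower ratio at 24 h moves with every 24 h value below, and its part in them was not tested.

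HSPA1A and HSPA1B, the stress-inducible HSP70 genes, could not be followed. HSPA1A was listed at 0 in each of the 20 libraries, over a 3′ UTR of 260 bases at chr6:31817683-31817942. A count of 0 allows up to 3 reads, or 0.161 to 0.259 RPM depending on the library. HSPA1B had 29 reads in total, spread over 9 libraries with at most 9 in any of them, and 25 of the 29 were T>C reads. The surrounding region was poor in reads as well. Within 1 Mb of the pair, 67 of 92 protein-coding genes (72.8%) were listed at 0, among them the splicing helicase gene DDX39B and the LSM2 gene of the U6 snRNA-binding ring, against 12.8% of 19477 other protein-coding genes. CSNK2B, also within 1 Mb, had 4783 reads of which 100% were multimapping. No level, change or absence of HSPA1A and HSPA1B can be read from these rows, and why the region lacks reads was not tested. The remaining 8 members passed the filter on low counts for both T>C reads and total reads, through their levels in several groups.

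**Figure D1:**
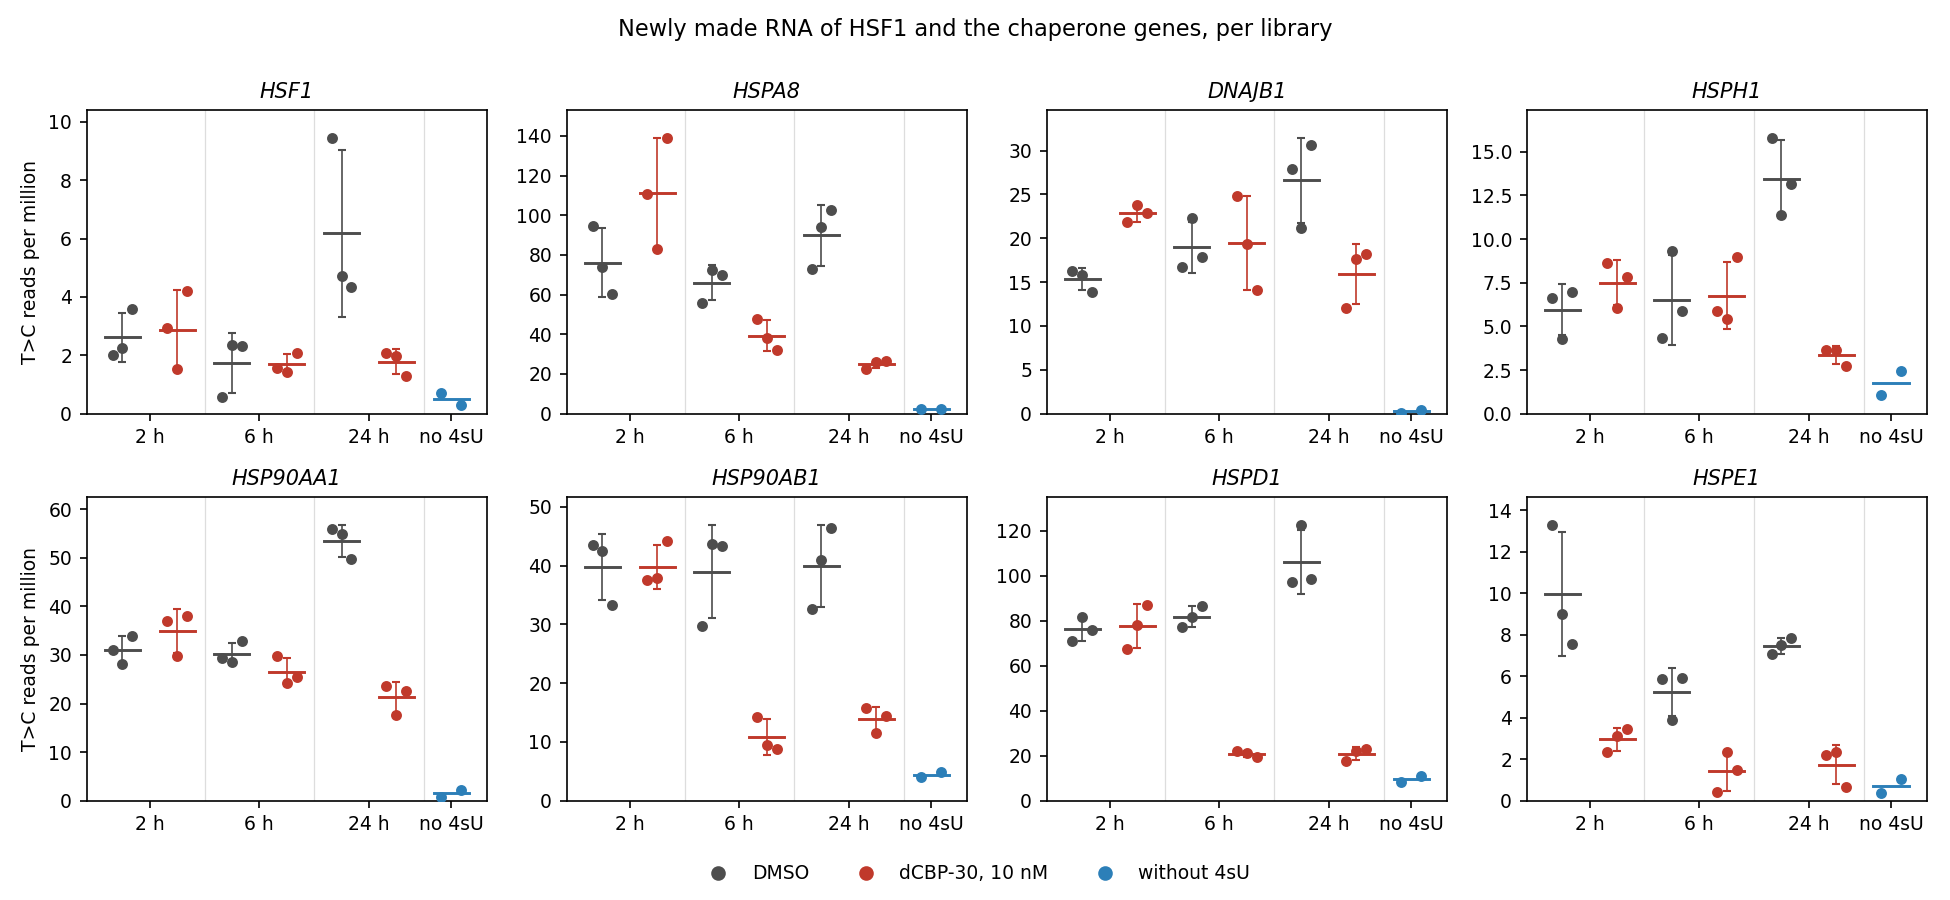
T>C RPM (vertical axes from 0, scaled separately) in each library for the 8 members that could be tested, with the group mean as a bar and ± SD as whiskers (n = 3; none for the 2 libraries without 4sU). By adjusted p alone HSPE1 passed as lower under dCBP-30 from 2 h, HSPA8, HSP90AB1 and HSPD1 from 6 h, and all 8 members at 24 h. Of all genes tested, 8.35%, 21.3% and 37.1% passed as lower at 2, 6 and 24 h.

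More members passed as lower in T>C reads at each later time, which counts calls and is not a test between times. At 2 h HSPE1 was lower and HSPA8 somewhat higher. At 6 h HSP90AB1, HSPD1 and HSPE1 were lower by more than 2-fold and HSPA8 by less. At 24 h all 8 members tested were lower, 7 of them by more than 2-fold and DNAJB1 by less. With edgeR's quasi-likelihood test at an adjusted p below 0.05 and a change beyond 2-fold, 1, 3 and 7 of the 8 were called lower at 2, 6 and 24 h, beside 7.14%, 17.1% and 31.2% of the 10083 genes tested. None was called higher at any time, beside 1.66%, 2.36% and 2.18%. Without the fold limit 1, 4 and 8 members were lower (8.35%, 21.3% and 37.1% of all genes), and 1, 0 and 0 were higher (2.45%, 3.02% and 2.78%). The median log2 change of the 8 members was 0.16, -0.47 and -1.82, and that of all genes 0.05, -0.27 and -0.69. These changes are relative to total reads. When each library was scaled by its own T>C reads instead, the median of all genes at 24 h was -0.04 and 4 members were called lower past 2-fold. The 31.2% of all genes does not belong to that scaling, and the share called under it is not given here.

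**Figure D2:**
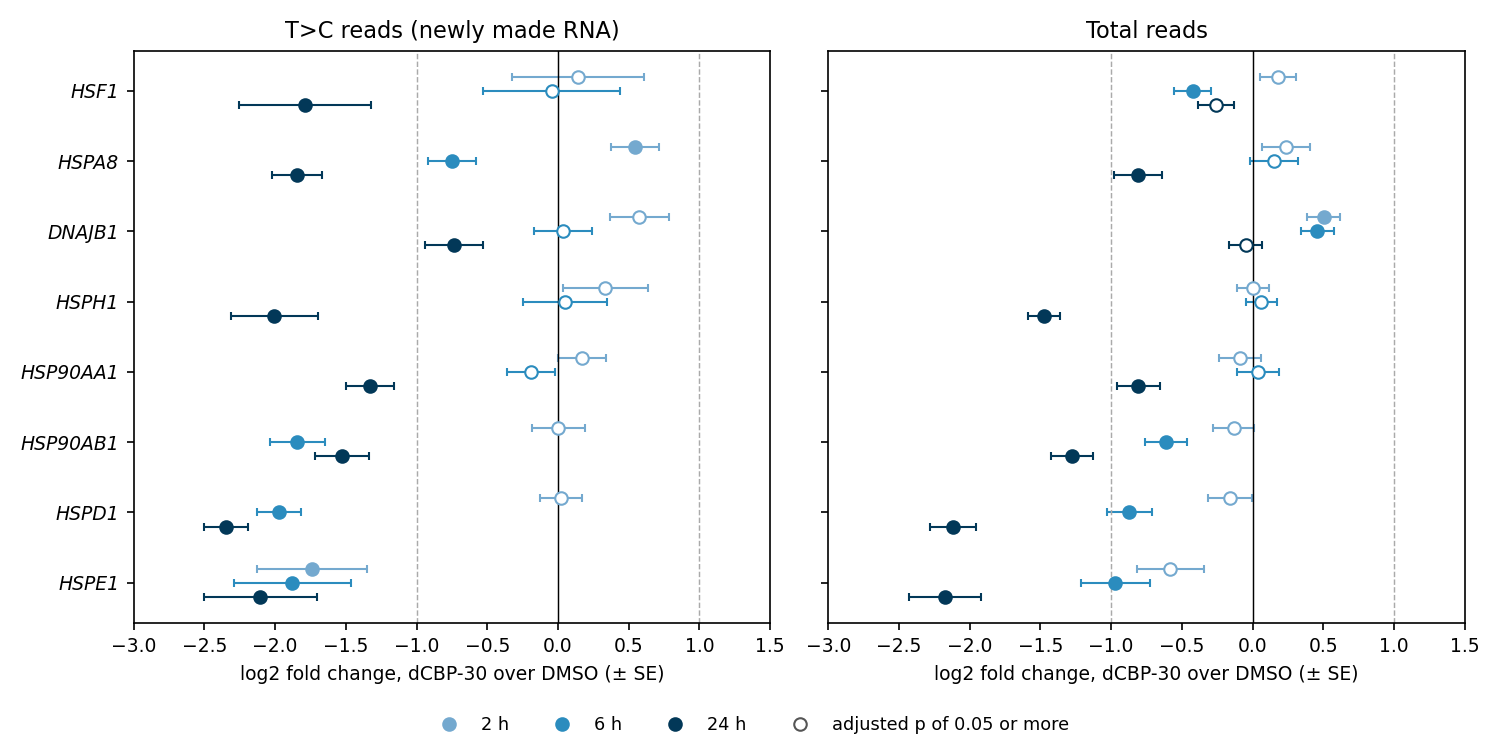
Log2 fold change of dCBP-30 over DMSO with its SE for each member at 2, 6 and 24 h, in T>C reads (left) and total reads (right). Filled points passed an adjusted p of 0.05, open points did not, and dashed lines mark 2-fold. HSPE1 is the only member beyond 2-fold at 2 h in T>C reads, and the 24 h points of HSPD1 and HSPE1 lie beyond -2 on both sides.

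HSF1, the master regulator of the set, was measured on the 390 bases of its 3′ UTR at chr8:144314331-144314720. Its T>C reads were few. At 2 h they came to 2.00, 2.26 and 3.58 RPM under DMSO and 2.93, 1.52 and 4.19 RPM under dCBP-30, and the groups overlapped. At 6 h they were 0.566, 2.35 and 2.31 RPM under DMSO and 1.56, 1.44 and 2.08 RPM under dCBP-30, so that these groups also overlapped, and DMSO replicate 1 was within the 0.298 and 0.702 RPM seen without 4sU. The 24 h groups separated. DMSO libraries held 9.46, 4.71 and 4.35 RPM and dCBP-30 libraries 2.08, 1.98 and 1.29 RPM, a log2 change of -1.79 (SE 0.47, edgeR adjusted p = 0.0014). The 24 h DMSO mean of 6.17 ± 2.85 RPM (SD, n = 3) stood above the 2.61 ± 0.85 RPM at 2 h, while the dCBP-30 mean at 24 h was 1.78 ± 0.43 RPM. Scaled by T>C reads, the 24 h change was -1.13 and no longer passed (edgeR adjusted p = 0.064). In total reads HSF1 was lower at 6 h. The libraries held 121, 116 and 114 RPM under DMSO and 83.5, 80.1 and 98.3 RPM under dCBP-30 (log2 change -0.42, SE 0.13, edgeR adjusted p = 0.011). This change no longer passed without dCBP-30 replicate 2 (edgeR adjusted p = 0.056). At 24 h the change in total reads was -0.26 (edgeR adjusted p = 0.087).

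HSPA8 encodes the constitutive cytosolic HSP70, HSC70. Its new RNA was higher at 2 h and then lower. T>C reads at 2 h were 94.7, 73.7 and 60.2 RPM under DMSO and 111, 83.2 and 139 RPM under dCBP-30, overlapping groups with a log2 change of 0.54 (SE 0.17, edgeR adjusted p = 0.026). That it passed rested on single libraries. Without dCBP-30 replicate 3 the change was 0.34 (edgeR adjusted p = 0.32), and it also did not pass without dCBP-30 replicate 1, DMSO replicate 2 or DMSO replicate 3 (edgeR adjusted p = 0.069, 0.098 and 0.20). At 6 h DMSO libraries held 55.9, 72.2 and 70.1 RPM and dCBP-30 libraries 47.8, 38.1 and 32.1 RPM. The groups were now separate and the log2 change was -0.75 (SE 0.17, edgeR adjusted p = 5.2e-04), though scaled by T>C reads it was -0.44 (edgeR adjusted p = 0.057). At 24 h the values were 73.1, 93.9 and 103 RPM against 22.5, 26.0 and 26.5 RPM, a log2 change of -1.85 (SE 0.18, edgeR adjusted p = 3.1e-13). The share of HSPA8 reads that were T>C reads was 16.5% ± 1.1 (SD, n = 3) under DMSO at 24 h and 8.09% ± 0.67 (SD, n = 3) with the degrader. The pool followed late, with 470, 579 and 582 RPM of total reads under DMSO and 286, 343 and 299.9 RPM under dCBP-30 at 24 h (log2 change -0.81, SE 0.17, edgeR adjusted p = 2.7e-04). HSPA8 has many processed pseudogenes, and 79.7% of its reads were multimapping (75.1% to 84.6% by library), so its level and its changes are uncertain. With the multimapping reads taken off, the total change of HSPA8 at 24 h was -0.70 (edgeR adjusted p = 0.020). They were not taken off the T>C reads. An HSPA8 transcript with a 3′ UTR of 33 bases had 30121 reads, of which 0.0133% were multimapping, and it was not tested alone. Multimapping reads also made up 24.3% of the reads of HSPD1, 9.71% of HSP90AB1, 8.29% of HSP90AA1 and 5.57% of HSPE1. For DNAJB1, HSF1 and HSPH1 the shares were 2.19%, 0.230% and 0.0862%.

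DNAJB1 encodes HSP40, the J-domain partner of HSP70 and a classic inducible gene. It was the member whose total reads rose. At 2 h the total reads were 95.7, 111 and 104 RPM under DMSO and 151, 151 and 137 RPM under dCBP-30, with every dCBP-30 library above every DMSO library (log2 change 0.50, SE 0.12, edgeR adjusted p = 0.0096). At 6 h they were 107, 118 and 110.1 RPM against 161, 166 and 132 RPM (log2 change 0.46, SE 0.11, edgeR adjusted p = 0.0025). At 24 h the groups overlapped, with a change of -0.05 (edgeR adjusted p = 0.73). The 2 h rise missed the threshold without dCBP-30 replicate 1 (edgeR adjusted p = 0.052) or DMSO replicate 1 (edgeR adjusted p = 0.074).
In T>C reads DNAJB1 held 16.2, 15.9 and 13.9 RPM under DMSO at 2 h and 21.8, 23.8 and 22.9 RPM under dCBP-30. These groups did not overlap, and the log2 change of 0.57 (SE 0.21) did not pass (edgeR adjusted p = 0.063). The 6 h values of 16.7, 22.3 and 17.9 RPM against 24.8, 19.4 and 14.1 RPM overlapped fully, with a change of 0.04. At 24 h the libraries held 27.9, 21.2 and 30.7 RPM under DMSO and 12.0, 17.6 and 18.2 RPM under dCBP-30, a log2 change of -0.74 (SE 0.20, edgeR adjusted p = 0.0027). The median gene was at -0.69, and DNAJB1 scaled by T>C reads was at -0.08 (edgeR adjusted p = 0.80). Up to 32.8% of the DNAJB1 reads in a DMSO library were T>C reads at 24 h.

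HSPH1 encodes HSP110, which resets HSP70 by nucleotide exchange. Its new RNA was 6.62, 4.30 and 6.94 RPM under DMSO and 8.63, 6.07 and 7.82 RPM under dCBP-30 at 2 h, and 4.32, 9.32 and 5.90 RPM against 5.87, 5.44 and 8.95 RPM at 6 h. Both pairs of groups overlapped and neither change passed (0.33 and 0.05). At 24 h it was 15.8, 11.4 and 13.1 RPM under DMSO and 3.67, 3.63 and 2.74 RPM under dCBP-30, so that it fell by 2.00 on the log2 scale (SE 0.31, edgeR adjusted p = 1.9e-07). Libraries without 4sU held 1.08 and 2.45 RPM, and the 24 h dCBP-30 libraries were close to this in RPM. As a share of HSPH1 reads, T>C reads were 3.04% to 4.37% in those dCBP-30 libraries and 0.449% and 0.967% without 4sU. Total reads at 24 h were 262, 244 and 232 RPM against 92.8, 82.9 and 90.1 RPM (log2 change -1.47, SE 0.11, edgeR adjusted p = 4.4e-11), and at 2 and 6 h they differed by 0.00 and 0.06. Its most-read transcript is annotated to nonsense-mediated decay in GENCODE and has 14 segments within chr13:31136628-31152908. On the MANE Select transcript, the reference transcript shared by RefSeq and Ensembl, the 24 h T>C change was -1.68 (edgeR adjusted p = 3.1e-04).

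HSP90AA1 and HSP90AB1, the stress-responsive and the constitutive cytosolic HSP90 gene, passed the test at different times. HSP90AB1 fell in new RNA at 6 h and HSP90AA1 passed the test only at 24 h. T>C reads of HSP90AB1 at 6 h were 29.8, 43.7 and 43.3 RPM under DMSO and 14.3, 9.44 and 8.83 RPM under dCBP-30, a log2 change of -1.84 (SE 0.20, edgeR adjusted p = 1.2e-11). Those of HSP90AA1 were 29.3, 28.6 and 32.8 RPM against 29.8, 24.2 and 25.6 RPM, overlapping groups with a change of -0.19 (SE 0.17, edgeR adjusted p = 0.48). At 2 h both genes had overlapping groups. HSP90AB1 held 43.6, 42.5 and 33.3 RPM under DMSO and 37.5, 37.8 and 44.1 RPM under dCBP-30 (change 0.00), and HSP90AA1 held 31.1, 28.1 and 34.0 RPM against 37.1, 29.7 and 38.0 RPM (change 0.17). The difference between the genes at 6 h was not itself tested.
At 24 h both HSP90 genes were lower in new RNA. HSP90AA1 held 55.9, 54.9 and 49.7 RPM under DMSO and 23.5, 17.6 and 22.6 RPM under dCBP-30 (log2 change -1.33, SE 0.17, edgeR adjusted p = 2.5e-09). Its DMSO level at 24 h, 53.5 ± 3.4 RPM (SD, n = 3), exceeded the 31.0 ± 3.0 RPM at 2 h, whereas HSP90AB1 under DMSO was 39.8 ± 5.6, 38.9 ± 7.9 and 40.0 ± 7.0 RPM at 2, 6 and 24 h. HSP90AB1 at 24 h held 32.6, 40.9 and 46.5 RPM against 15.7, 11.6 and 14.3 RPM (log2 change -1.53, SE 0.19, edgeR adjusted p = 1.6e-09). Scaled by T>C reads, both 24 h changes still passed the test but were within 2-fold, at -0.69 for HSP90AA1 (edgeR adjusted p = 0.00068) and -0.88 for HSP90AB1 (edgeR adjusted p = 0.00018). Total reads of HSP90AB1 were 545, 681 and 643 RPM under DMSO and 517, 402 and 305 RPM under dCBP-30 at 6 h (log2 change -0.61, SE 0.15, edgeR adjusted p = 0.0017), and fell further by 24 h (-1.28, edgeR adjusted p = 6.6e-08). Total reads of HSP90AA1 differed by 0.04 at 6 h and by -0.81 at 24 h (edgeR adjusted p = 6.5e-05). The most-read HSP90AA1 transcript, annotated to nonsense-mediated decay with 6 segments, shares no base with the MANE Select 3′ UTR at chr14:102080742-102081711. On that UTR the T>C changes were -0.34, 0.20 and -1.43 at 2, 6 and 24 h, of which those at 2 and 6 h had the opposite sign to the values above and did not pass the test.

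HSPD1 and HSPE1 encode the mitochondrial chaperonin and its cofactor, HSP60 and HSP10, from the head-to-head pair of genes described above. Both fell, and HSPE1 passed the test earlier. T>C reads of HSPE1 at 2 h were 13.3, 9.03 and 7.54 RPM under DMSO and 2.33, 3.10 and 3.44 RPM under dCBP-30, a log2 change of -1.74 (SE 0.39, edgeR adjusted p = 7.6e-04). Those of HSPD1 at 2 h were 71.0, 81.8 and 76.0 RPM against 67.5, 78.0 and 87.1 RPM, fully overlapping groups with a change of 0.02 (SE 0.15, edgeR adjusted p = 0.96). The T>C reads of HSPE1 per T>C read of HSPD1 were 0.187, 0.110 and 0.0992 under DMSO at 2 h and 0.0345, 0.0398 and 0.0395 under dCBP-30. In total reads the same ratio was 0.197, 0.159 and 0.118 against 0.127, 0.107 and 0.121. The T>C ratio separated the 2 h groups and the ratio in total reads did not.
At 6 h HSPE1 held 5.87, 3.89 and 5.90 RPM under DMSO and 0.419, 2.33 and 1.47 RPM under dCBP-30 (log2 change -1.88, SE 0.41, edgeR adjusted p = 2.5e-04). HSPD1 held 77.3, 81.7 and 86.3 RPM against 22.0, 21.2 and 19.4 RPM (log2 change -1.97, SE 0.16, edgeR adjusted p = 3.1e-16). Both chaperonin genes now had separate groups, and the T>C ratio of HSPE1 to HSPD1 overlapped between groups at 6 and 24 h. At 24 h HSPE1 held 7.06, 7.51 and 7.83 RPM against 2.19, 2.36 and 0.644 RPM (log2 change -2.11, SE 0.40, edgeR adjusted p = 1.6e-05). HSPD1 held 97.2, 123 and 98.7 RPM against 17.6, 22.0 and 23.0 RPM (log2 change -2.35, SE 0.16, edgeR adjusted p = 3.4e-19). Libraries without 4sU held 0.383 and 1.04 T>C RPM of HSPE1 and 8.42 and 11.0 of HSPD1. Single HSPE1 libraries under dCBP-30 at 6 and 24 h were within that RPM range. As a share of HSPE1 reads, their T>C reads were 1.07% and 4.18%, against 0.686% and 1.05% without 4sU.
The RNA pools of both genes were lower from 6 h. Total reads of HSPD1 were 472, 673 and 638 RPM under DMSO and 391, 328 and 255 RPM under dCBP-30 at 6 h (log2 change -0.87, SE 0.16, edgeR adjusted p = 9.4e-05), and 601, 796 and 756 RPM against 148, 187 and 160 RPM at 24 h (log2 change -2.12, SE 0.16, edgeR adjusted p = 6.6e-11). Total reads of HSPE1 were 66.5, 80.1 and 68.4 RPM against 39.3, 43.7 and 26.6 RPM at 6 h (log2 change -0.97, SE 0.24, edgeR adjusted p = 0.0031), and 55.0, 87.6 and 106 RPM against 17.7, 22.0 and 15.4 RPM at 24 h (log2 change -2.18, SE 0.25, edgeR adjusted p = 2.3e-07). At 2 h the HSPE1 pool differed by -0.58 and did not pass (edgeR adjusted p = 0.21).

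The T>C reads of HSPD1 came largely from a small stretch of the gene. Its most-read transcript, annotated to nonsense-mediated decay with 7 segments in chr2:197486586-197490978, held 155151 reads, and a transcript with 6 segments (ENST00000677454.1) held 155032. The latter differs from a shorter one (ENST00000677792.1) by segments at chr2:197490197-197490296 and chr2:197490527-197490564 and by 22 further bases of a shared segment. The difference between their counts gives the reads on that stretch, which made up 10.3% of the reads in labelled libraries and 59.9% of the T>C reads. Under DMSO 68.6% to 83.8% of these added reads were T>C reads, while in libraries without 4sU they were 0.138% and 0.539%. Under dCBP-30 the share was 65.1% to 82.4% at 2 h, 54.3% to 64.6% at 6 h and 36.7% to 62.5% at 24 h. On the remaining segments the T>C share was 2.33% to 8.19% with 4sU and 1.79% and 1.81% without it. Under dCBP-30 at 6 h it was 2.33% to 2.61%, close to that background. Both portions stood at similar shares of the DMSO level, which were 1.03 and 0.994 for the 2 h libraries, 0.261 and 0.242 for the 6 h libraries and 0.210 and 0.179 for the 24 h libraries. The 0.242 of the remaining segments therefore rests on T>C reads close to the background. On the MANE Select transcript, which lacks the added segments, the T>C changes of HSPD1 were -0.03, -1.78 and -2.22. Without 4sU 2.26% of the reads of that transcript were T>C reads. At 24 h the ratio of conversions to T>C reads for HSPD1 had a mean of 1.48 under DMSO and 0.857 under dCBP-30. Both were below the library-wide ratios given above. Why these segments carry so many T>C reads, and why the ratio for HSPD1 is low, was not tested.

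**Figure D3:**
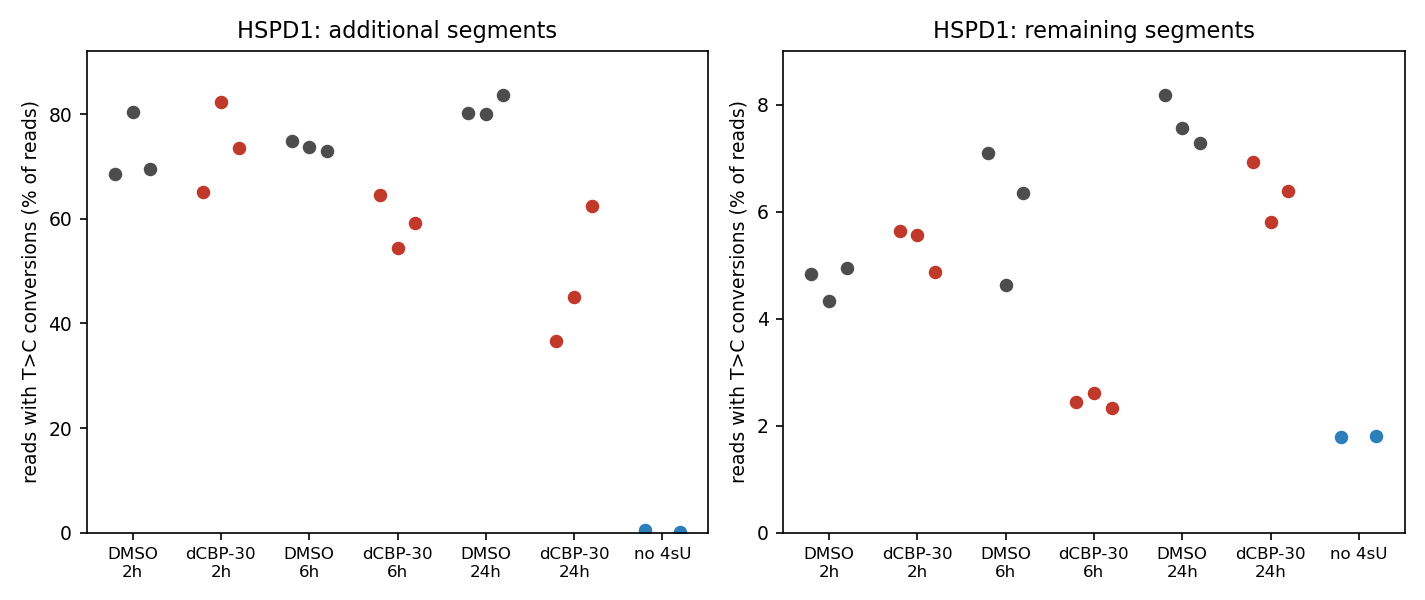
Share of HSPD1 reads that carried T>C conversions (% of reads) in each library, on the 2 added segments (left) and on the remaining segments of the transcript that holds them (right), with separate vertical axes from 0. Black points are DMSO, red points dCBP-30 and blue points the libraries without 4sU. The added segments reached 83.8% under DMSO and stayed below 1% without 4sU.

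The change of each member was also compared between time points, and no test compared members with each other. In the same edgeR fit, the T>C change at 6 h was lower than the change at 2 h for HSPA8, HSP90AB1 and HSPD1 (8.03% of all genes had a differing change in either direction). The change at 24 h was lower than that at 2 h for all tested members except HSPE1 (26.0% of all genes), and lower than that at 6 h for HSPA8, HSPH1 and HSP90AA1 (12.1%). For HSF1 and DNAJB1 the difference between 24 and 2 h depended on the scaling, and scaled by T>C reads it was -1.28 (edgeR adjusted p = 0.20) and -0.66 (edgeR adjusted p = 0.11). That of HSF1 also missed the threshold without DMSO replicate 1 of 24 h (-1.49, edgeR adjusted p = 0.14). For HSPE1 the 24 h change was -0.36 (SE 0.55) relative to 2 h and did not pass (edgeR adjusted p = 0.68). In total reads, no member was called past 2-fold at 2 or 6 h and 4 were called lower at 24 h, HSPH1, HSP90AB1, HSPD1 and HSPE1, beside 1.25%, 8.67% and 16.1% of the 12267 genes tested. None was called higher, beside 0.457%, 7.47% and 15.0%. By adjusted p alone 0, 4 and 6 members were lower in total reads (2.67%, 21.5% and 29.9% of all genes). In the other direction 1, 1 and 0 were higher, DNAJB1 both times (1.54%, 18.8% and 28.6%). Without TMM factors, HSF1 and HSP90AB1 at 6 h (-0.11 and -0.30) and HSPA8 and HSP90AA1 at 24 h (-0.28 each) no longer passed in total reads. HSPA8, HSPH1 and HSP90AA1 then passed as higher at 6 h (0.47, 0.38 and 0.35), where the median of all genes was raised by 0.32.

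Other chaperone genes were counted in 9 lists of 105 genes, also chosen with earlier results of these data known. Of these genes 84 were tested in T>C reads. At 2, 6 and 24 h, 2, 16 and 35 of them were called lower past 2-fold (2.38%, 19.0% and 41.7%, beside 7.14%, 17.1% and 31.2% of all genes), and 2, 1 and 0 higher (beside 1.66%, 2.36% and 2.18% of all genes). Their median log2 changes were 0.11, -0.31 and -0.93, beside 0.05, -0.27 and -0.69 for all genes. At 2 h the higher genes were BAG3, a co-chaperone that links HSP70 to small heat shock proteins, at 2.18 ± 0.35 RPM under DMSO and 6.38 ± 0.60 under dCBP-30 (log2 change 1.55, SE 0.34), and HSPA5, the HSP70 of the endoplasmic reticulum also called BiP, at 64.2 ± 2.4 and 130.4 ± 11.0 RPM (log2 change 1.02, SE 0.15). The lower genes at 2 h were HSPB1, which encodes HSP27 and was the only small heat shock protein gene tested (-1.02, SE 0.30), and HTRA2, a protease of the mitochondrial intermembrane space (-1.12, SE 0.36). HSPB1 fell by 1.32 and 1.89 at 6 and 24 h on the log2 scale.

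The counts by list at 6 and 24 h stand beside 17.1% and 31.2% of all genes called lower past 2-fold, and nothing particular to a list was tested. A list held the TRiC chaperonin, the cytosolic counterpart of the HSPD1 barrel, its helper prefoldin and a few further genes, TXNDC9 among them. It had 5 of 16 genes lower past 2-fold at 6 h and 7 of 16 at 24 h. CCT3, a TRiC subunit, was at -1.48 at 6 h and TXNDC9 at -2.54 at 24 h. HSP90 co-chaperones had 3 and 7 of 17 lower, with PTGES3, the co-chaperone p23, at -1.74 at 6 h and TRAP1, the mitochondrial HSP90, at -2.44 at 24 h. Among 11 genes of mitochondrial import and quality control, 3 and 6 were lower, with HTRA2 at -2.02 and -2.54. Of 19 J-domain genes 1 and 4 were lower, with DNAJC2 at -1.21 and DNAJC9 at -2.72, and DNAJB5 was higher at 6 h (3.50, SE 1.28, edgeR adjusted p = 0.036). DNAJB5 had a mean below 20 T>C reads in both 6 h groups, so its change rests on few reads. Of 9 HSP70 exchange and adaptor genes 1 and 4 were lower, with BAG1 at -1.09 and BAG2 at -2.11 (SE 0.62). The BAG2 groups at 24 h were low and overlapped, at 0.656 to 3.70 RPM under DMSO and 0.219 to 0.751 RPM under dCBP-30. Of 5 further HSP70 genes 0 and 3 were lower, with HSPA4L, an HSP110 relative, at -2.42 at 24 h. Of 4 chaperones of the endoplasmic reticulum 2 and 3 were lower, with HSP90B1, the HSP90 of that compartment, at -1.40 and DNAJB9 at -2.85. Neither HSF2, a related factor, nor HSBP1, which encodes an HSF1-binding protein, was called at any time.

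**Figure D4:**
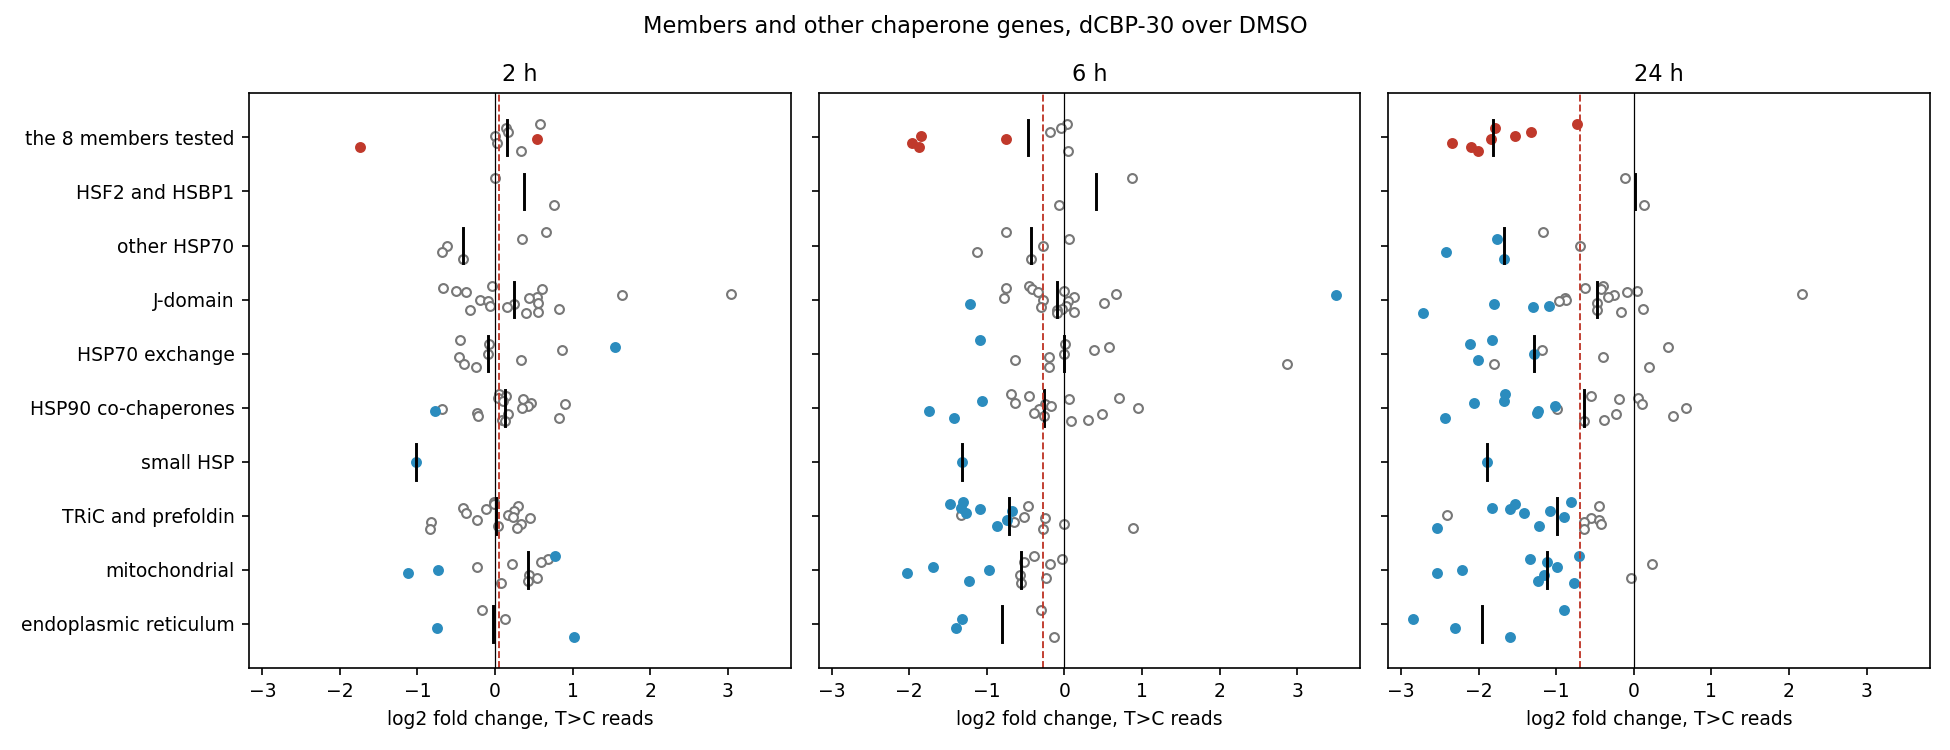
Log2 fold change in T>C reads, dCBP-30 over DMSO, of the 8 members tested (red) and of 84 other chaperone genes by list (blue) at 2, 6 and 24 h. Filled points passed an adjusted p of 0.05, black bars are list medians, and the dashed line is the median of all 10083 genes, which was -0.69 at 24 h.

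Over the 18 labelled libraries, which share their group structure and scaling, the members' T>C levels (log2 of RPM plus 1) followed different genes among the 7558 compared. The gene most like HSP90AB1 was CCT3 (Pearson r = 0.979), followed by WDR43 (0.975) and PPIA, the cyclophilin A gene (0.967). HSPA8 was most like the ribosomal protein genes RPS4X (0.965) and RPL10A (0.951), followed by MPHOSPH10 (0.948). HSPD1 was most like ITGA8 (0.983), DKC1 (0.981) and BHLHA15 (0.980), and HSPE1 like EIF5A, which encodes a translation factor (0.921), CCNL1 (0.901) and SUPT16H (0.890). HSP90AA1 was most like SRSF11 (0.939), SLC25A4 (0.923) and SURF6 (0.920), and HSPH1 like PTPMT1 (0.885), GTSE1 (0.868) and NFATC2IP (0.867). HSF1 had ZNF317 (0.849), SNAPC5 (0.817) and ATP6V1F (0.816), and DNAJB1 had FTSJ3 (0.828), ACAA2 (0.819) and SLF1 (0.817). Within the set, HSP90AB1 and HSPD1 were most alike (0.944), and DNAJB1 and HSPE1 least (0.009).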

How the data were processed

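SLAM-seq libraries of MM1.S cells (18 with 4sU, 2 without) were read from the deposited tables, which hold raw counts per transcript: all reads, T>C reads and multimapping reads. The authors trimmed QuantSeq 3′ reads with TrimGalore, ran Slamdunk on hg38 3′ UTRs and collapsed counts by transcript, and the Drosophila spike-in was not used here. Of 97466 transcripts, 89088 (91.4%) matched GENCODE release 44, giving 19593 genes, each taken from its most-read transcript. T>C and total counts were tested with edgeR 4.0.16 (R 4.3.3, robust quasi-likelihood, filterByExpr with a minimum count of 10) in one fit over 18 libraries with a mean per group. Library size was total reads times a TMM factor from total reads, and RPM uses the same scaling. Called means a Benjamini-Hochberg adjusted p below 0.05 over all genes and a change above 2-fold. Intervals on counts cover counting error only, and reads are not independent molecules. The fit was tested on simulated data. Named genes were the 10 members, in each other list and time the called gene with the largest change among those with at least 20 T>C reads on average in the higher group, and the 3 most similar genes of each member. DNAJB5, the neighbors of HSPA1A and marker genes were named after their values were seen. Members and lists were chosen with earlier results of these data known. Alternatives were DESeq2 1.42.0, other scalings, filters, transcripts and single libraries left out.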

Additional observations from a re-analysis of the deposited data

Results flagged for a closer look

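The T>C change under dCBP-30 differed between time points for 7 members, tested as an interaction in the edgeR fit, where 26.0%, 12.1% and 8.03% of all genes differed for 24 against 2 h, 24 against 6 h and 6 against 2 h. From 2 to 24 h the log2 change moved by -1.93 (SE 0.66, edgeR adjusted p = 0.023) for HSF1, -2.39 (1.3e-11) for HSPA8, -2.34 (2e-05) for HSPH1, -1.50 (1.5e-06) for HSP90AA1, -1.53 (9e-06) for HSP90AB1, -1.31 (0.00038) for DNAJB1 and -2.37 (1.8e-13) for HSPD1. Scaled by T>C reads, the move from 2 to 24 h was -1.28 for HSF1 (edgeR adjusted p = 0.20) and -0.66 for DNAJB1 (edgeR adjusted p = 0.11), and neither passed. With DESeq2 on T>C size factors both also missed the threshold (DESeq2 adjusted p = 0.24 and 0.19), as did HSF1 without TMM factors (edgeR adjusted p = 0.11). HSF1 missed it too without DMSO replicate 1 of 24 h (edgeR adjusted p = 0.14), dCBP-30 replicate 3 of 2 h (0.10) or 24 h (0.056), or DMSO replicate 1 or 2 of 2 h (0.056 and 0.051). From 6 to 24 h it moved by -1.10 (0.00084) for HSPA8, -2.05 (0.00031) for HSPH1 and -1.14 (0.00039) for HSP90AA1. From 2 to 6 h it moved by -1.29 (0.00011) for HSPA8, -1.84 (9.4e-07) for HSP90AB1 and -1.99 (3.9e-10) for HSPD1. The median of all genes moved by -0.72, -0.37 and -0.32 over the same intervals. For HSF1, HSP90AA1, HSPH1 and DNAJB1 the DMSO level of T>C reads was itself higher at 24 h than at 2 h, at 6.17, 53.5, 13.4 and 26.6 RPM against 2.61, 31.0, 5.95 and 15.3 RPM. For HSPD1 it was 106 against 76.3 RPM. The T>C share of all reads under DMSO was also higher, at 8.15% to 8.62% at 24 h against 5.99% to 6.13% at 2 h.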

How the results depend on the processing

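The scaling mattered most. Counts of members under the alternative settings stand without the share of all genes called there, so they show only how the count moved. The count of members lower in T>C reads at 24 h was 7, and 4 (HSPA8, HSPH1, HSPD1 and HSPE1) both when scaled by T>C reads and with DESeq2 on T>C size factors. DNAJB1 in T>C reads at 24 h turned from -0.74 to 0.017 (DESeq2 adjusted p = 0.96) with the latter. Without TMM factors, which raised the median of all genes in total reads by 0.10, 0.32 and 0.53 at 2, 6 and 24 h, DNAJB1 in total reads at 24 h turned from -0.05 to 0.47 (edgeR adjusted p = 0.0010), and 2 rather than 4 members were lower. Without a fold threshold, 1 member was higher in T>C reads at 2 h, 1 in total reads at 2 h and 1 at 6 h, and 4 were lower in total reads at 6 h. Leaving out single libraries gave 0 to 2 members lower in total reads at 6 h, with 2 without dCBP-30 replicate 1 or DMSO replicate 1, and 1 without dCBP-30 replicate 2 or DMSO replicate 3. Replicate numbers did not pair the samples (1 of 9 correlations over 0.1, range -0.36 to 0.11), and the replicate block left 7 members lower in T>C reads at 24 h and changed no other count. The MANE Select alternative was chosen after seeing the data. Few T>C reads limit HSF1, HSPE1 and HSPH1.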
